A study of Mus musculus with 8 samples.

Results

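Immune cells of brown adipose tissue (BAT) were followed through 36 marker genes of macrophages and lymphocytes, out of 33641 genes in the count files. With earlier results of these data seen, the members were chosen by name, as receptors, effector proteins and chemokines known for these cells. They were *Ptprc*, carried by all leukocytes, 19 myeloid genes, 4 genes of MHC class II, 10 lymphoid genes and the chemokine ligands *Ccl2* and *Ccl5*. RNA was sequenced from interscapular BAT of 8 mice labelled C57BL/6, all 28 weeks old, and the question was whether the immune cell RNA of the tissue differed between control and *Adipo-HuR-/-* mice. The 3 libraries labelled wild type (A7, A8 and A12, control replicates 1 to 3) are called control. By the study's methods, controls were littermates of mixed genotype (*wt/wt-cre+*, *flox/flox-cre-* or *wt/flox-cre-*). The 5 libraries labelled as HuR knockout (A31, A29, A26, A25 and A24, replicates 5 to 1), called the *Adipo-HuR-/-* group by this label, came from mice with floxed HuR alleles and an *AdipoQ-Cre* transgene. The adiponectin promoter directs this Cre to adipocytes, so that macrophages and lymphocytes of these mice keep an intact HuR gene.

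Macrophages live between the adipocytes, vessels and nerve fibres of BAT, where they clear dead cells, lipid and debris and present antigen on MHC class II. B lymphocytes carry an immunoglobulin receptor, at first with the IgM heavy chain, and T lymphocytes carry a T cell receptor held by the CD3 chains. In RNA of whole tissue, fewer cells of a type and less RNA per cell cannot be told apart.

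The sum of estimated counts in a control library was 60622522 (A7), 51751002 (A8) or 50673814 (A12). In the *Adipo-HuR-/-* group it was 67498055 (A26), 58727739 (A31), 50893173 (A29), 18264754 (A24) or 17558090 (A25), so that A24 and A25 had the lowest depth. Levels are given as CPM, the count of a gene relative to the library total after TMM normalization, which sets the libraries level over most of their genes. They are listed from the highest to the lowest library. The TMM factor was lowest in A8 (0.763) and highest in A25 (1.2). RNA of skeletal muscle set A7, A8 and A31 apart. The summed level of 20 contractile genes was 4374 CPM (A7), 2672 (A8) and 60.7 (A12), and 470.0 CPM in A31, 58 in A29, 54.2 in A24, 39.6 in A25 and 31.4 in A26. The summed level of 9 genes that brown adipocytes express was high in each library, from 17179.9 CPM in A25 to 34694 in A8. *Elavl1*, the HuR gene itself, had 50.6 CPM in A7, 49.2 in A12 and 48 in A8 among the controls. *Elavl1* had 61.9 CPM in A24, 61.3 in A29, 61.2 in A31, 47.2 in A25 and 43.4 in A26 in the *Adipo-HuR-/-* group, a log2 fold change of 0.16 (edgeR adjusted p = 0.667). As 3 of the 5 libraries labelled *Adipo-HuR-/-* exceeded all controls, this total does not check the labels, and each direction below rests on them. The study also states the group sizes the other way round, and an exchange of the groups would turn each direction below. The study reports many genes of sarcoplasmic calcium cycling as reduced in *Adipo-HuR-/-* mice. By the labels, all 20 contractile genes, another set, had a log2 fold change below 0, although their sum was also low in the control A12. The study's report rests on the same RNA-seq, so that it is no separate check of the labels. An exchange of the groups was not tested. The labels were followed.

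None of the 34 members tested passed the threshold, an adjusted p of at most 0.05 with a fold change of at least 1.5 in edgeR's quasi-likelihood test, beside 105 of all 14851 genes tested (0.707%). *Ighm* and *Cd3e*, 2 of the 34, had an unadjusted p under 0.05, beside 17% of all genes tested in either direction. *Ighm* alone of the 34 passed the threshold in DESeq2's Wald test, beside 823 of all 14851 genes, and in edgeR's likelihood ratio test, beside 655. Each of these tests had 2 members at an unadjusted p under 0.05. In limma voom 0 members passed, beside 157 of all 14851 genes, with 3 members at an unadjusted p under 0.05. *Ms4a1* and *Nkg7* had too few counts for the filter and were not tested. The CPM of *Trem2*, *Cd3e* and *Ighm* was higher in each library labelled *Adipo-HuR-/-* than in any control, 3 of the 34 members beside 5.37% of all genes tested. For 0 of the 34 members were the groups apart in the lower direction, beside 6.09% of all genes. The log2 fold change was above 0 for 16 of the 34 members, beside 50.1% of all genes, and their median was −0.037 beside 0.001 over all genes. With libraries scaled by total counts only, a change that moved the median of all genes to 0.23, it was above 0 for 23 of the 34.

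**Figure D1:**
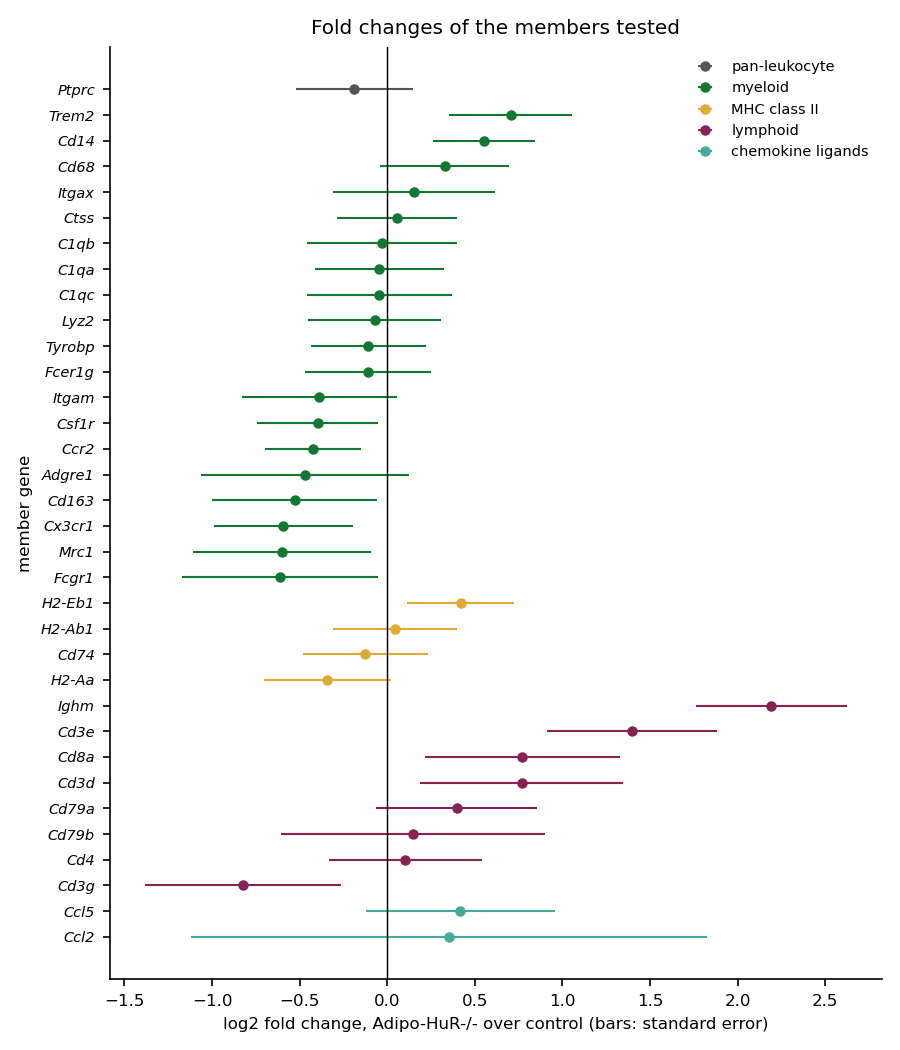
Log2 fold change of each of the 34 members tested (horizontal axis, libraries labelled *Adipo-HuR-/-* over control), with bars for the standard error and colors for the roles. *Ighm* has the highest value, 2.19, and *Cd3g* the lowest, −0.82.

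With fewer libraries the groups of more genes were apart. Without A8 this held for 11 of 35 members (31.4%, beside 26.5% of all genes tested), 6 higher (*Cd14*, *Trem2*, *Cd3e*, *Cd8a*, *Ighm* and *Ccl5*) and 5 lower (*Csf1r*, *Itgam*, *Mrc1*, *Cx3cr1* and *Ptprc*) in the libraries labelled *Adipo-HuR-/-*. A8 had the lowest value of all 8 libraries for 15 of the 36 members and for 11 of the 19 myeloid members. Without A7, A8 and A31, the libraries with muscle RNA, it held for 17 of 35 members, 6 higher and 11 lower, or 48.6% beside 53% of all genes, in a comparison chosen after seeing the data. It leaves A12 as the lone control, which is assumed to vary like the other libraries, and 0 members passed the threshold in it (edgeR, 2 at an unadjusted p under 0.05).

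*Ptprc* encodes CD45, a phosphatase on the surface of all leukocytes. It had 4.64 CPM in A12, 3.9 in A7 and 1.57 in A8 among the controls. *Ptprc* had 3.51 CPM in A25, 3.47 in A29, 3.05 in A26, 2.51 in A31 and 2.26 in A24 in the *Adipo-HuR-/-* group. A8 was the lowest and A12 the highest of all 8 libraries, with the other group between them. On the log2 scale the fold change was −0.19 (standard error 0.334, edgeR adjusted p = 0.822), and 0.11 without A12.

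*Adgre1* encodes F4/80, the classical surface marker of mouse macrophages (chromosome 17, 57358691 to 57483527, plus strand). It had 4.53 CPM in A12, 3.58 in A7 and 0.43 in A8 among the controls. The *Adipo-HuR-/-* group had 3.8 CPM in A25, 2.14 in A24, 1.6 in A26, 1.55 in A31 and 1.4 in A29. A12 exceeded all 5 libraries labelled *Adipo-HuR-/-*, A7 exceeded 4 of them and A8 lay below all of them, so that the spread within the controls was wider than the difference between the groups. Its log2 fold change was −0.47 (standard error 0.595, edgeR adjusted p = 0.741). It was −0.97 without A8 and 0.026 without A12. *Csf1r* encodes the receptor for CSF1, on which most tissue macrophages depend. It had 14 CPM in A12, 11.5 in A7 and 4.47 in A8 among the controls. The *Adipo-HuR-/-* group had 9.99 CPM in A24, 8.82 in A25, 7.96 in A31, 6.68 in A29 and 4.75 in A26, again between A8 and the other controls. Its log2 fold change was −0.40 (standard error 0.346, edgeR adjusted p = 0.607), and 0.39 when its transcript with the highest total count stood for the gene. That of *Csf1r* was −0.74 without A8 and −0.078 without A12.

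*Lyz2*, the lysozyme of macrophages and other myeloid cells, was the most abundant myeloid member per length, with 34.7 CPM per kilobase of transcript over all 8 libraries. *C1qa* followed with 12.3, *C1qb* with 11.7 and *C1qc* with 9.87 CPM per kilobase. *Lyz2* had 75.2 CPM in A12, 46.4 in A7 and 19.6 in A8 among the controls. *Lyz2* had 69.5 CPM in A24, 47 in A26, 39.7 in A25, 34.1 in A31 and 34 in A29 in the *Adipo-HuR-/-* group. A8 was lowest and A12 and A24 were highest, 1 library from each group. For *Lyz2* the log2 fold change was −0.071 (standard error 0.379, edgeR adjusted p = 0.944), and it was above 0 without A12 (0.44), without A29 (0.017), without A31 (0.015) and with total counts only (0.085).

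*C1qa*, *C1qb* and *C1qc* encode the chains of C1q, the first component of the classical complement pathway, and lie side by side on chromosome 4 from 136880129 to 136898803, all on the minus strand. *C1qa* had 17 CPM in A7, 16.3 in A12 and 5.65 in A8 among the controls. *C1qa* had 18.7 CPM in A24, 14.8 in A25, 12 in A31, 10.3 in A29 and 7.7 in A26 in the *Adipo-HuR-/-* group. A24, A7 and A12 were the highest and A8 and A26 the lowest, with overlapping groups. The log2 fold changes of *C1qa*, *C1qb* and *C1qc* were −0.045, −0.029 and −0.045 (edgeR adjusted p from 0.964 to 0.98), and the sign changed in 5, 6 and 6 of 18 alternatives, a count that here and below leaves out the fit without A7, A8 and A31. That of *C1qa* was above 0 with total counts only (0.13) and without A7 (0.20), A12 (0.15), A26 (0.093) or A29 (0.026). Within a library the count of *C1qc* over that of *C1qa* lay between 0.81 (A29) and 1.02 (A24). That of *C1qb* over *C1qa* lay between 0.794 (A8) and 1.11 (A12). The count of *C1qb* over that of *C1qa* was 0.949 ± 0.156 (SD, n = 3) in controls and 0.994 ± 0.0786 (SD, n = 5) in the other group (two-sided exact permutation p = 0.679).

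*Trem2*, a lipid-sensing receptor that marks macrophages at sites of lipid uptake, was the myeloid member without overlap (chromosome 17, 48346401 to 48354147, plus strand). It had 0.939 CPM (A7), 0.81 (A8) and 0.669 (A12) among the controls. *Trem2* had 2.26 CPM in A24, 1.15 in A31, 1.14 in A26, 1.09 in A25 and 1.04 in A29 in the *Adipo-HuR-/-* group. The lowest library labelled *Adipo-HuR-/-*, A29, lay just above the highest control, A7, and A24 stood well above all others. The mean was 0.806 ± 0.135 CPM (SD, n = 3) against 1.34 ± 0.516 CPM (SD, n = 5), or on the log2 scale 0.70 (standard error 0.35, edgeR adjusted p = 0.343). It was 0.45 without A24. The two-sided exact permutation p was 0.0357, the smallest that 3 libraries against 5 allow. Groups without overlap always give this value, so that it is a description here and below. When the transcript with the highest total count stood for the gene, the groups of *Trem2* overlapped.

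The other myeloid members had overlapping groups and edgeR adjusted p-values from 0.369 (*Cd14*) upwards. Among the receptors of resident macrophages, *Mrc1*, the mannose receptor, had a log2 fold change of −0.60 and ranged from 1.65 CPM in A8 to 9.7 in A12. *Cd163*, the receptor for hemoglobin bound to haptoglobin, had −0.53 on the log2 scale and ranged from 1.8 CPM in A31 to 6.41 in A7. *Itgam* and *Itgax*, the integrin chains CD11b and CD11c, had log2 fold changes of −0.39 and 0.15. *Cd68*, a lysosomal glycoprotein, had 0.33, and *Cd14*, a co-receptor for lipopolysaccharide, had 0.55, with 1.68 CPM in A7 as its lowest and 3.84 in A26 as its highest level. The cysteine protease gene *Ctss* had 0.057. For the high-affinity Fc receptor *Fcgr1* the log2 fold change was −0.61, whereas its signalling partner *Fcer1g* had −0.11 and the adaptor *Tyrobp*, which signals for TREM2, had −0.11. *Ccr2*, the CCL2 receptor of monocytes, had −0.42, and *Cx3cr1*, the fractalkine receptor, had −0.59. The sign changed in 1 of 18 alternatives for *Cd163* (0.024 without A7), *Itgam* (0.18 with its highest transcript) and *Cd68* (−0.0088 without A8), in 1 of 17 for *Itgax* (−0.20 without A26), and in 3, 4 and 6 of 18 for *Fcer1g*, *Tyrobp* and *Ctss*.

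Of the 19 myeloid members, all of which passed the filter, 5 had a log2 fold change above 0 and 14 below, with a median of −0.11. This split followed single libraries and the scaling. The number above 0 was 9 without A7, 3 without A8, 12 without A12, 9 without A29, 8 without A31 and 11 with total counts only. Their summed level was 194 CPM in A12, 162 in A7 and 61.8 in A8. It was 190.5 CPM (A24), 138 (A25), 111 (A26), 109.9 (A31) and 104 (A29), with every library labelled *Adipo-HuR-/-* between A8 and A12. The means were 139 ± 69 CPM (SD, n = 3) and 131 ± 35.9 CPM (SD, n = 5), so that the difference was far within the spread of the libraries. The 9 fibroblast and preadipocyte genes, none at 0 throughout and with *Dcn* the most abundant per length (38.2 CPM per kilobase), had 559 CPM in A12, 403 in A7 and 195 in A8 and 337 CPM in A24, 295 in A25, 263 in A31, 249.6 in A29 and 140.2 in A26. A8 was the lowest control for these genes as well, and their part in the myeloid values was not tested. Of these 9 genes 1 had a log2 fold change above 0 and 8 below, with a median of −0.42, and 0 passed the threshold in edgeR's test, with 1 at an unadjusted p under 0.05, *Col3a1* (−1.09, adjusted p = 0.198), followed by *Dpp4* (−0.84, adjusted p = 0.461). With 1 library left out they ran from −1.43 to −0.61 and from −1.27 to −0.31, both closest to 0 without A12.

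**Figure D2:**
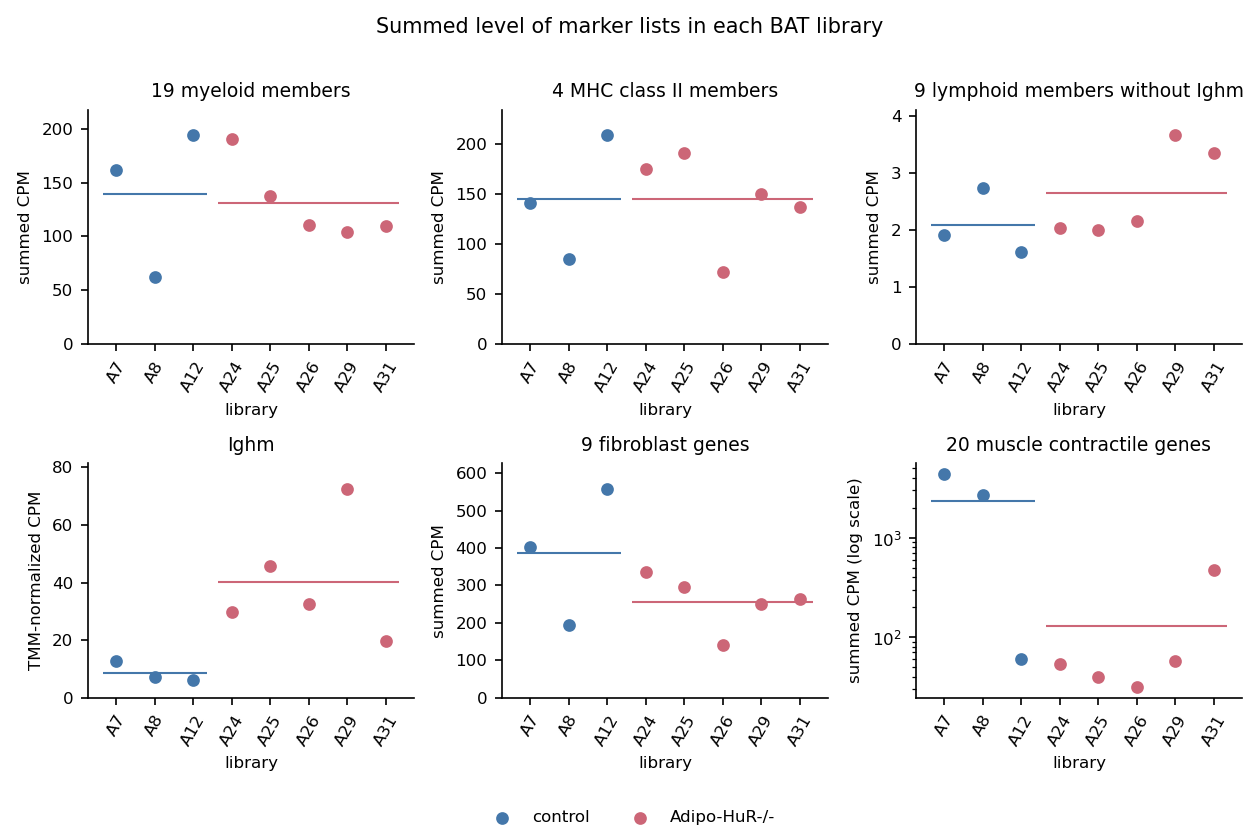
Summed CPM of myeloid and MHC class II members, of the lymphoid members without *Ighm*, of fibroblast genes and of muscle genes (log axis), and CPM of *Ighm*, in each library, with lines at the group means. A8 has the lowest myeloid sum, 61.8 CPM, and the controls A7 and A8 the highest muscle sums.

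Of 36 other macrophage genes 34 were tested. Of these 7 had a log2 fold change above 0 and 27 below, with a median of −0.22, beside 50.1% of all genes above 0. The summed level overlapped between the groups, lowest in A8 (72.4 CPM) and highest in A24 (159 CPM). The split of these genes was not followed through the alternatives. None passed the threshold in edgeR's test, with 3 at an unadjusted p under 0.05, *Timd4* and *Maf*, which were lower, and *Csf2ra*, a receptor chain for GM-CSF, which was higher (1.00, standard error 0.343, adjusted p = 0.172) with overlapping groups. *Timd4*, a phosphatidylserine receptor of long-lived resident macrophages, had 0.453 CPM (A7), 0.329 (A8) and 0.272 (A12) among the controls. *Timd4* had 0.148 CPM in A26, 0.113 in A24, 0.0949 in A25, 0.0606 in A31 and 0.0568 in A29 in the *Adipo-HuR-/-* group. The groups were apart, on counts of 2 to 28 per library. Its log2 fold change was −1.89 (standard error 0.486, edgeR adjusted p = 0.097). In the likelihood ratio test its adjusted p was 0.0151, within 0.0151 to 0.356 over the alternatives. *Maf*, a transcription factor of resident macrophages, had 8.22 CPM in A7, 7.12 in A12 and 4.06 in A8 among the controls. *Maf* had 4.41 CPM in A25, 3.59 in A31, 3.27 in A24, 3.06 in A29 and 2.26 in A26 in the *Adipo-HuR-/-* group. A25 lay above A8, so that the groups overlapped. The log2 fold change was −0.97 (standard error 0.278, edgeR adjusted p = 0.119), and *Maf* passed the threshold in DESeq2's Wald test (adjusted p = 0.0241, from 0.0241 to 0.339 over the alternatives).

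*Ccl2*, the ligand that draws CCR2-bearing monocytes, varied most among the members. It had 3.47 CPM in A7, 0.104 in A12 and 0.0253 in A8 among the controls. *Ccl2* had 6.6 CPM in A24, 0.909 in A31, 0.593 in A26, 0.0947 in A29 and 0.0474 in A25 in the *Adipo-HuR-/-* group. A7 and A24, 1 library of each group, stood far above the rest, and A8 and A25 rested on 1 count each. For *Ccl2* the log2 fold change was 0.35 with a standard error of 1.47 (edgeR adjusted p = 0.928), and −1.48 without A24, −0.20 without A8, −0.20 without A12 and 4.49 without A7. *Ccl7*, a related ligand chosen after its values were seen, was also highest in A24 (4.23 CPM) and A7 (2.61 CPM). *Ccl5*, a chemokine of T and natural killer cells, had 0.405 CPM in A8, 0.178 in A7 and 0.125 in A12 among the controls. *Ccl5* had 0.493 CPM in A29, 0.395 in A24, 0.282 in A26, 0.197 in A31 and 0.19 in A25 in the *Adipo-HuR-/-* group, in overlap with the controls. Its log2 fold change was 0.42 (standard error 0.54, edgeR adjusted p = 0.747), and 0.12 without A12 and 1.02 without A8. Of 28 other chemokines and receptors, 21 were tested, 14 with a log2 fold change above 0 and 7 below. None passed the threshold in edgeR's test, and 1 had an unadjusted p under 0.05, *Cx3cl1*, the ligand of CX3CR1 (1.21, adjusted p = 0.132). In DESeq2's Wald test *Cx3cl1* had an adjusted p of 0.0193, the lowest over its alternatives, which reached 0.3000. *Cxcl10*, induced by interferon, followed with 0.85 (edgeR adjusted p = 0.327). In the list of 14 cytokines and activation genes 10 were tested and 0 passed in edgeR's test, with 0 at an unadjusted p under 0.05. *Tgfb1* (0.34, adjusted p = 0.314) and *Retnla* (−0.95, adjusted p = 0.377) had the smallest p there. All 16 interferon response genes were tested and 0 passed in edgeR's test, with 1 at an unadjusted p under 0.05, *Ifit3* (−0.63, adjusted p = 0.266), followed by *Ifit2* (−0.54, adjusted p = 0.361).

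MHC class II displays peptides to helper T cells and is made by macrophages, dendritic cells and B cells alike. *Cd74*, the invariant chain that guides class II molecules to the endosome, was its most abundant member per length (42.9 CPM per kilobase), followed by *H2-Eb1* (34.4), *H2-Aa* (27.4) and *H2-Ab1* (17.7). *Cd74* had 81.3 CPM in A12, 61.4 in A7 and 29.3 in A8 among the controls. *Cd74* had 74.4 CPM in A25, 66.4 in A24, 48.2 in A29, 46.6 in A31 and 27.8 in A26 in the *Adipo-HuR-/-* group. A8 and A26 were the lowest and A12 and A25 the highest. *Cd74* thus gave a log2 fold change of −0.12 (standard error 0.355, edgeR adjusted p = 0.894), and above 0 without A12 (0.21), without A26 (0.039) and with total counts only (0.074). The summed level of the 4 members was 145 ± 62.1 CPM (SD, n = 3) and 145 ± 45.7 CPM (SD, n = 5), lowest in A26 and highest in A12.

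*H2-Eb1* encodes the beta chain of the mouse molecule I-E, and *H2-Aa* the alpha chain of I-A. *H2-Eb1* had 47.3 CPM in A12, 29.9 in A7 and 22.4 in A8 among the controls. *H2-Eb1* had 55.3 CPM in A29, 49.1 in A25, 48.1 in A31, 47.1 in A24 and 22.7 in A26 in the *Adipo-HuR-/-* group. A8 and A26 were again the lowest, and the other libraries labelled *Adipo-HuR-/-* all lay close to or above the highest control, A12. The log2 fold change was 0.42 (standard error 0.307, edgeR adjusted p = 0.535), and −0.12 without A7, A8 and A31. It was 0.21 without A8 alone and 0.76 without A12 alone. *H2-Aa*, given in each library after its values were seen, had 54.9 CPM in A12, 29 in A7 and 21.3 in A8 among the controls. *H2-Aa* had 37.1 CPM in A24, 36 in A25, 27.4 in A29, 25.1 in A31 and 12.9 in A26 in the *Adipo-HuR-/-* group. A12 was the highest and A26 the lowest, and the log2 fold change was −0.34 (standard error 0.362, edgeR adjusted p = 0.682). Without A12 that of *H2-Aa* was 0.14, and that of *H2-Ab1* was 0.045 with all libraries and below 0 in 6 of 18 alternatives (down to −0.35).

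Within a library, the count of *H2-Eb1* was set against that of *H2-Aa*, a ratio chosen after seeing the data, in which the amount of class II RNA and the scaling cancel. The ratio was 1.05 in A8, 1.03 in A7 and 0.863 in A12. It was 2.02 in A29, 1.92 in A31, 1.75 in A26, 1.36 in A25 and 1.27 in A24. All 5 libraries labelled *Adipo-HuR-/-* lay above all controls, also A26, where both genes were low. Whether the mice differ in the sequence of these genes, which can change the reads assigned to each, was not tested. The means were 0.982 ± 0.104 (SD, n = 3) and 1.66 ± 0.333 (SD, n = 5). As the ratio was picked from the data and is 1 of 3 ratios of these genes that were computed, its p of 0.0357 (two-sided exact permutation, the smallest that 8 libraries allow) is a description. The ratio of *H2-Ab1* to *H2-Aa* overlapped between the groups (two-sided exact permutation p = 0.107), as did that of *H2-Eb1* to *H2-Ab1* (p = 0.143, same exact test).

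**Figure D3:**
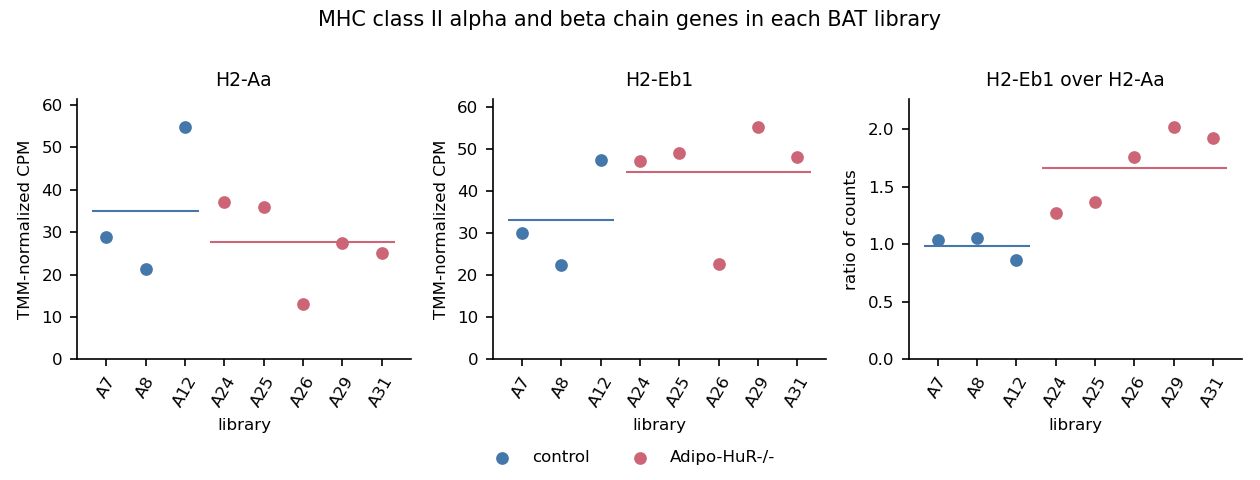
CPM of *H2-Aa* and *H2-Eb1* and the ratio of their counts in each library, with lines at the group means. The ratio is 0.863 to 1.05 in the controls and 1.27 to 2.02 in the libraries labelled *Adipo-HuR-/-*.

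The promoters of *H2-Aa* and *H2-Eb1* are shown because both genes share the promoter elements of the class II family and the ratio of their counts is given above. Each window holds 250 bases before and 50 bases after the RefSeq gene start on GRCm38.p6, written 5ʹ to 3ʹ on the strand of the gene: chr17:34287774-34288073, minus strand, for *H2-Aa* and chr17:34305617-34305916, plus strand, for *H2-Eb1*. Capitals mark the letters ATTGG, the core of the Y box, on the printed strand, or CCAAT, the same letters on the other strand. The window of *H2-Aa* holds 1 match, which begins 48 bases before the gene start, and that of *H2-Eb1* holds 2, 1 on each strand, which begin 59 and 35 bases before it. Of all 32851 promoter windows 37.4% hold these letters on either strand, and 3842 windows hold 2 or more matches. A match is thus a description and not a site.
H2-Aa: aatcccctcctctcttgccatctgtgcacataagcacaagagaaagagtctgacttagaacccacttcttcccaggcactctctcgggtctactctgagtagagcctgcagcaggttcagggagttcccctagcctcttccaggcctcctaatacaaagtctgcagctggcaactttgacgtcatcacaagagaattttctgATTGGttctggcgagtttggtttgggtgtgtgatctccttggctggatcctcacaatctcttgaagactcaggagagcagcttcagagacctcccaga
H2-Eb1: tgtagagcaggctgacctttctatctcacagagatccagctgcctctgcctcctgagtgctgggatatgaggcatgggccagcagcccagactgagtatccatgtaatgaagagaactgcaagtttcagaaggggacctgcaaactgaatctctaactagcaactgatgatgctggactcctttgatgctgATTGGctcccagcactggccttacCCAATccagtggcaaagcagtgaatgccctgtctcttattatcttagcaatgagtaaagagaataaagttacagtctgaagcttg

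Of 10 other genes of the class II pathway 9 were tested and 0 passed the threshold in edgeR's test, with 1 at an unadjusted p under 0.05. This was *Ifi30*, a lysosomal thiol reductase that prepares antigen (0.62, standard error 0.218, adjusted p = 0.183). *Rfxap*, a subunit of the factor that binds class II promoters, followed with 0.37 (adjusted p = 0.346, edgeR), and with −0.24 for its transcript with the highest total count.

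*Ighm* encodes the constant region of the IgM heavy chain (chromosome 12, 113418558 to 113422730, minus strand) and had the highest fold change of the 34 members tested. It had 12.9 CPM (A7), 7.29 (A8) and 6.1 (A12) among the controls. *Ighm* had 72.7 CPM in A29, 45.7 in A25, 32.6 in A26, 29.7 in A24 and 19.6 in A31 in the *Adipo-HuR-/-* group. The lowest library labelled *Adipo-HuR-/-*, A31, lay above the highest control, A7, and A29 was the highest of all. These levels rest on 288 to 3836 counts per library. The mean was 8.75 ± 3.61 CPM (SD, n = 3) among controls against 40.04 ± 20.5 CPM (SD, n = 5), which gives a log2 fold change of 2.19 (standard error 0.432, edgeR adjusted p = 0.0526, two-sided exact permutation p = 0.0357). *Ighm* thus missed the threshold by a small margin, and passed it with total counts only (adjusted p = 0.0493), with no filter (0.0302), with at least 10 counts required in every library (0.0419), in edgeR's likelihood ratio test (0.000247) and in DESeq2's Wald test (7.94e-06). The adjusted p reached 0.277 over the alternatives, with the score of contractile genes as a covariate in edgeR (log2 fold change 2.27, standard error 0.649). With any 1 library left out, the log2 fold change stayed between 1.86 and 2.58 and the edgeR adjusted p between 0.0535 and 0.124. In the Wald test 823 and in the likelihood ratio test 655 of all 14851 genes passed the threshold, beside 105 in the quasi-likelihood test.

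Both *Ighm* transcripts in the files were higher without overlap. The transcript with 6 exons and 1698 bases had 7.85 CPM (A7), 5.87 (A8) and 2.82 (A12). The same transcript had 42.2 CPM in A29, 22.2 in A25, 18.5 in A24, 17.6 in A26 and 9.62 in A31 in the *Adipo-HuR-/-* group. The transcript with 4 exons and 1493 bases had 5.01 CPM in A7, 3.28 in A12 and 1.43 in A8, and 30.4 CPM in A29, 23.5 in A25, 15 in A26, 11.2 in A24 and 9.93 in A31. Each was lower in all 3 controls than in any of the other libraries (two-sided exact permutation p = 0.0357 each, which only restates this). They share most of their exons, and how the authors' counting divided reads between them is uncertain.

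For other immunoglobulin genes, chosen after the values of *Ighm* were seen, the groups overlapped. *Igkc*, the constant region of the kappa light chain, had 2.57 CPM in A12, 2.28 in A8 and 0.453 in A7 among the controls. *Igkc* had 3.92 CPM in A29, 1.75 in A24, 1.66 in A25, 1.55 in A31 and 0.578 in A26 in the *Adipo-HuR-/-* group, in overlap with the controls, with a log2 fold change of 0.11 (edgeR adjusted p = 0.949). *Ighd*, the IgD heavy chain, had 0.64 (standard error 0.668) and *Jchain*, which joins IgM units, had 0.41 (standard error 0.434) on the log2 scale. Over 113 variable segments of the heavy chain, which an IgM mRNA carries in front of the constant region, the summed level was 0.543 CPM in A12, 0.405 in A8 and 0.0486 in A7. It was 0.758 CPM in A29, 0.664 in A25, 0.451 in A24, 0.409 in A31 and 0.133 in A26. A7 was the lowest and A29 the highest library, and the groups overlapped. These sums rest on only 3 (A7) to 40 (A29) counts per library, and 46 of the 113 segments had any count. The count of *Ighm* over that of *Igkc* was 28.4 (A7), 3.2 (A8) and 2.37 (A12), and 56.3 in A26, 27.5 in A25, 18.5 in A29, 17 in A24 and 12.7 in A31, also in overlap (two-sided exact permutation p = 0.286), so that a difference between these 2 genes was not shown. Sequence differences between the mice were not tested here either. How reads were divided among similar variable segments is uncertain.

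**Figure D4:**
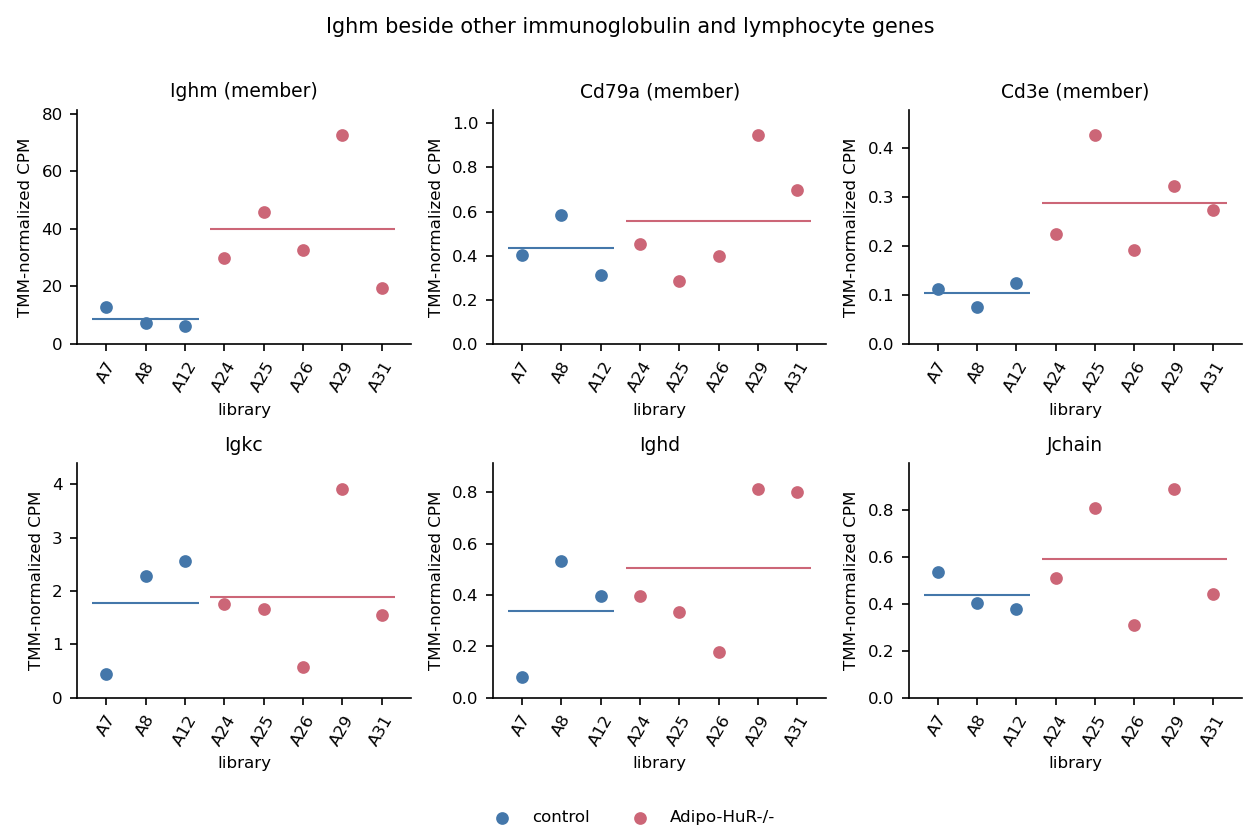
CPM of *Ighm*, *Cd79a*, *Cd3e*, *Igkc*, *Ighd* and *Jchain* in each library, with lines at the group means. *Ighm* and *Cd3e* separate the groups, whereas *Cd79a*, *Igkc*, *Ighd* and *Jchain* overlap.

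*Cd79a* encodes a signalling chain of the B cell receptor and was the lymphoid member next to *Ighm* in level per length (0.35 against 17.7 CPM per kilobase). It had 0.582 CPM in A8, 0.405 in A7 and 0.313 in A12 among the controls. *Cd79a* had 0.947 CPM in A29, 0.697 in A31, 0.451 in A24, 0.4001 in A26 and 0.285 in A25 in the *Adipo-HuR-/-* group. A29 and A31 were the highest, but A25 lay below all controls. For *Cd79a* the log2 fold change was 0.40 (standard error 0.459, edgeR adjusted p = 0.712), and from 0.11 (without A29) to 0.66 with 1 library left out. Its partner *Cd79b* had 0.15 (edgeR adjusted p = 0.942, below 0 in 3 of 17 alternatives) and 0 counts in A25, which allows up to 0.142 CPM. *Ms4a1*, which encodes CD20 of mature B cells, had 0.263 CPM in A8, 0.174 in A12 and 0.134 in A7 among the controls. *Ms4a1* had 0.293 CPM in A31, 0.224 in A25, 0.175 in A29, 0.169 in A24 and 0.115 in A26 in the *Adipo-HuR-/-* group, in overlap, on 3 to 19.3 counts per library. Of 14 other B cell genes 10 were tested, 7 with a log2 fold change above 0 and 3 below. In edgeR's test 0 passed the threshold and 0 had an unadjusted p under 0.05. *Ebf1* (−0.34, adjusted p = 0.353), a B cell factor that adipocytes also express, and *Cd37* (0.47, adjusted p = 0.547) had the smallest p. Their summed level, most of it *Ebf1*, was 76.8 CPM in A12, 71.7 in A8 and 71 in A7 and 70.8 CPM in A25, 68.4 in A31, 60.6 in A29, 53.1 in A24 and 45.1 in A26, lower without overlap in the libraries labelled *Adipo-HuR-/-*, with A25 just below A7.

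*Cd3e* encodes the epsilon chain of CD3 (chromosome 9, 44998740 to 45009627, minus strand) and was the other lymphoid member without overlap. It had 0.125 CPM in A12, 0.113 in A7 and 0.076 in A8 among the controls. *Cd3e* had 0.427 CPM in A25, 0.322 in A29, 0.273 in A31, 0.226 in A24 and 0.193 in A26 in the *Adipo-HuR-/-* group. The lowest library labelled *Adipo-HuR-/-*, A26, lay above the highest control, A12, but the levels rest on only 3 to 18 counts per library. The log2 fold change was 1.40 (standard error 0.485, edgeR adjusted p = 0.178, two-sided exact permutation p = 0.0357). Its neighbours on chromosome 9, *Cd3d* and *Cd3g*, encode the other CD3 chains, and their difference from *Cd3e* was not tested. On the log2 scale *Cd3d* had 0.77 (standard error 0.58) and *Cd3g* −0.82 (standard error 0.561), with edgeR adjusted p-values of 0.549 and 0.5003. The co-receptor genes *Cd4* and *Cd8a*, which mark helper and cytotoxic T cells, had 0.10 and 0.77 on the log2 scale (edgeR adjusted p = 0.929 and 0.528), and *Cd4* lay just below 0 without A12, while *Cd8a* ran from 0.28 to 1.64 over the alternatives. *Nkg7*, a granule protein of natural killer and cytotoxic T cells, had 0.304 CPM in A8, 0.125 in A12 and 0.0324 in A7 among the controls. *Nkg7* had 0.152 CPM in A29, 0.151 in A31, 0.113 in A24, 0.0949 in A25 and 0.0593 in A26 in the *Adipo-HuR-/-* group, all within the range of the controls, on 2 to 12 counts per library. Of 27 other T and natural killer cell genes 11 were tested, 7 with a log2 fold change above 0 and 4 below. None passed the threshold in edgeR's test, with 2 at an unadjusted p under 0.05, *Trbc2*, a constant region of the T cell receptor (1.5, adjusted p = 0.262), and *Il7r*, the receptor for interleukin 7 (1.21, adjusted p = 0.28).

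Of the 10 lymphoid members 8 were tested, 7 with a log2 fold change above 0 and *Cd3g* below. The summed level of all 10 was 14.8 CPM (A7), 10.03 (A8) and 7.72 (A12). It was 76.3 CPM in A29, 47.7 in A25, 34.7 in A26, 31.8 in A24 and 22.9 in A31, above each control. Most of this sum was *Ighm*. Without *Ighm* the 9 other lymphoid members had 2.74 CPM in A8, 1.91 in A7 and 1.62 in A12 and 3.66 CPM in A29, 3.35 in A31, 2.15 in A26, 2.03 in A24 and 1.99 in A25, in overlap. The log2 ratio of the group means was 1.98 with *Ighm* and 0.34 without it. As a lymph node beside the tissue would bring B and T cell RNA, 9 lymph node genes were set beside these values. Of these 5 were tested, all with a log2 fold change above 0, and 0 passed the threshold in edgeR's test, with 0 at an unadjusted p under 0.05. *Cxcl13* (1.17, adjusted p = 0.418) and *Cxcr5* (1.01, adjusted p = 0.432) had the smallest p, and with 1 library left out they ran from 0.69 to 1.98 and from 0.58 to 1.69. Their summed level was 4.64 CPM (A7), 4.51 (A8) and 2.35 (A12), and 6.34 CPM in A29, 6.28 in A26, 5.72 in A25, 5.38 in A31 and 4.3 in A24. A24 and A7 had nearly the same sum and the groups overlapped, *Ccl21a* was the most abundant per length (2.21 CPM per kilobase) and *Glycam1* had 0 counts in 7 of 8 libraries. Their part in the *Ighm* values was not tested.

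The sum of the skeletal muscle contractile genes overlapped between the groups. These genes were high in the controls A7 and A8 and low in the control A12. All 20 were tested and had a log2 fold change below 0, and *Myh7* (−7.86, adjusted p = 0.0474, edgeR) and *Myl1* (−2.28, adjusted p = 0.0474, edgeR) passed the threshold, with 17 at an unadjusted p under 0.05. *Myh7* missed it in 8 of its 15 alternatives and *Myl1* in 12 of 18. *Myl1* was the most abundant per length (112 CPM per kilobase) and no gene of the list was at 0 in every library.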

How the data were processed

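Illumina TruSeq libraries were made from BAT RNA of 8 mice, 3 labelled wild type and 5 labelled as HuR knockout. The authors deposited estimated counts for 105129 transcripts per library on GRCm38, not normalized and not always whole, as reads that fit several transcripts are divided. The study's methods name CLC Genomics Workbench for mapping. The program that wrote these counts, and its use of strand, are not given in the sources used here. Transcript values were summed by gene symbol, rounded, filtered with edgeR's filterByExpr and scaled by TMM. Genes were tested by the quasi-likelihood F-test with Benjamini-Hochberg adjustment over all 14851 genes kept, with edgeR 4.0.16 (R 4.3.3), after trial on simulated data. The standard error of a log2 fold change is its size over the square root of F. Single values were compared by exact permutation over 56 assignments (scipy 1.17.1, Python 3.11.15, numpy 2.4.6, pandas 2.3.3, figures with matplotlib 3.10.9). Lengths and positions are from GENCODE M21, which holds a length for all 108 member transcripts, and promoters are from RefSeq, with windows for 23 of the 36 members. A limit of 3 counts was used beside a count of 0, and it covers counting error only. The members and all gene lists (other macrophage, class II pathway, T and natural killer cell, B cell, chemokine, cytokine and interferon genes, and genes of 11 other cell types or tissues) were chosen with earlier results of these data known.

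Members are given in every library when past the threshold, when the groups do not overlap, when among the 2 most abundant per length of their role, or as lineage markers (*Ptprc*, *Adgre1*, *Csf1r*, *Cd3e*, *Cd79a*, *Ms4a1* and *Nkg7*). From each other list, genes past the threshold and the 2 with the smallest p are named. Alternatives were other tests (limma 3.58.1 with voom and quality weights per sample, the Wald test of DESeq2 1.42.0, the likelihood ratio test of edgeR), other scalings (total counts, size factors of DESeq2), other filters (none, or a minimum of 10 counts per library), the transcript with the highest total count, the contractile score (mean log2 CPM with a prior count of 2) as a covariate, other thresholds, the libraries other than A24 and A25, each library left out, and, chosen after seeing the data, the libraries other than A7, A8 and A31.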

Additional observations from a re-analysis of the deposited data

Results flagged for a closer look

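The 5 libraries labelled *Adipo-HuR-/-* were examined for 1 library far from the other 4, by a gap to its nearest neighbour of more than 0.71 of the whole range. This was met by 12 of 102 sets of values (genes, sums and ratios, some of which share genes), and chance gives about 1 in 20. *Cd163* had 5.998 CPM in A25, where the other 4 had 1.8 to 2.14. *Trem2* had 2.26 CPM in A24, where the others had 1.04 to 1.15. *Cx3cr1* was low in A25, at 0.237 CPM on 5 counts, with 0.622 to 0.671 in the rest. *H2-Eb1* was low in A26, at 22.7 CPM, with 47.1 to 55.3 in the rest. The ratio of *H2-Ab1* to *H2-Aa* was 0.877 in A25 and 0.658 to 0.721 elsewhere. *Ccl2* had 6.6 CPM in A24 and 0.0474 to 0.909 elsewhere. *Retnla* had 7.56 CPM in A24 and 2.24 to 2.8 elsewhere.

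The other macrophage genes summed to 159 CPM in A24 and to between 96.3 and 111 in the rest. The Schwann cell genes summed to 100.2 CPM in A24, where the rest had 64 to 72.2, and their member *Pmp22* had 51.2 CPM there, where the rest had 22.4 to 30.1. *Siglech* was low in A29, at 0.133 CPM, with 0.256 to 0.285 in the rest. The contractile genes summed to 470.0 CPM in A31 and to between 31.4 and 58 in the rest. The library that stood apart was A24 or A25, those with the lowest depth, in 9 of the 12 sets, and the part of depth in this was not tested.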

How the results depend on the processing

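Genes past the threshold numbered 105, and 823 in DESeq2's Wald test, 655 in edgeR's likelihood ratio test, 492 at an adjusted p of at most 0.1 with no minimum fold change, 16 with the transcript with the highest total count, 15 with the contractile score as a covariate, 5 without A24 and A25, 4 without A7, A8 and A31, and 10 to 190 with each library left out. Members past it numbered 0, and 1 (*Ighm*) with total counts only, in the Wald and likelihood ratio tests, with no filter, with at least 10 counts in every library and at an adjusted p of at most 0.1. It was 0 with any library left out. Members with a log2 fold change above 0 numbered 7 of 22 with at least 10 counts in every library and 13 to 24 with each library left out. Members without overlap numbered 3 of 34 (8.82%, beside 11.5% of all genes), 2 of 32 with the transcript with the highest total count (*Cd3e* and *Ighm*, 6.25% beside 10%), 17 of 35 without A7, A8 and A31 (48.6% beside 53%) and 3 to 11 with each library left out. The 11 were those without A8 (31.4% beside 26.5%). The log2 ratio of the lymphoid sum, 1.98, was 2.62 without A7, A8 and A31, 0.37 as a mean of log2 CPM and 0.34 without *Ighm*. The myeloid ratio stayed between −0.52 and 0.22 and the class II ratio between −0.51 and 0.36. With each library left out they were −0.44 to 0.22 and −0.26 to 0.36, and the lymphoid ratio 1.66 to 2.26.

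Of all 34 members tested, 13 kept their direction in every alternative and 21 did not, or 14 and 20 when the fit without A7, A8 and A31 is not counted. Of 48 genes taken through the alternatives one by one, the genes named by rule and *H2-Aa*, 38 kept it and 10 did not, or 39 and 9 when that fit is not counted, as *H2-Eb1* turned to −0.12 in it. It is not counted either where changes of a single gene are given below. Genes outside these 2 sets were not followed in this way. With total counts only the log2 fold change was 0.085 for *Lyz2*, 0.13 for *C1qa* and 0.074 for *Cd74*. With the highest transcript it was 0.39 for *Csf1r* and −0.24 for *Rfxap*, and without A24 and A25 −1.18 for *Ccl2*. With each library left out it ran from −0.97 to 0.026 for *Adgre1*, −0.43 to 0.44 for *Lyz2*, −0.40 to 0.20 for *C1qa*, −0.43 to 0.21 for *Cd74*, −1.48 to 4.49 for *Ccl2*, −0.52 to 0.11 for *Ptprc* and −0.59 to 0.14 for *H2-Aa*. *Myh7* missed the threshold in 8 of its 15 alternatives and *Myl1* in 12 of its 18. *Pmp22* passed it without A24 (−1.02, adjusted p = 0.0445). The cause of these changes was not tested. Genes with under 20 counts in some libraries, such as *Cd3e*, *Cd79b*, *Ms4a1* and *Nkg7*, rest on few reads.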

Other observations

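Genes of other cells in the tissue were counted in the same way. Of 10 neutrophil genes 3 were tested and 0 passed the threshold in edgeR's test, with 0 at an unadjusted p under 0.05. *Csf3r* (0.59, adjusted p = 0.647) and *S100a8* (0.97, adjusted p = 0.647) had the smallest p and moved with single libraries, from 0.033 to 0.97 and from 0.29 to 2.72 with 1 left out. The sum of the list was highest in A26 (8.68 CPM) and A8 (7.37 CPM). *Ly6g*, which defines neutrophils in mice, had counts in A26 and A31 alone, 3 and 1. Of 8 mast cell genes 6 were tested and 0 passed in edgeR's test, with 1 at an unadjusted p under 0.05. This was *Hdc*, which makes histamine (0.90, adjusted p = 0.213), followed by *Cpa3* (−0.28, adjusted p = 0.754). None of the 4 eosinophil genes had enough counts for a test, and *Epx* had 0 counts in all 8 libraries. Of 6 dendritic cell genes 5 were tested and 0 passed in edgeR's test, with 1 at an unadjusted p under 0.05. *Zbtb46*, a factor of dendritic and endothelial cells, was higher without overlap (11 CPM in A8, 11 in A12 and 9.94 in A7, against 19.1 CPM in A26, 16.3 in A31, 14.6 in A29, 13.3 in A25 and 11.3 in A24), with a log2 fold change of 0.49 (edgeR adjusted p = 0.208). *Siglech*, of plasmacytoid dendritic cells, had −0.45 (edgeR adjusted p = 0.661).

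All 10 endothelial genes had a log2 fold change above 0, with a median of 0.28, and 0 passed the threshold in edgeR's test, with 2 at an unadjusted p under 0.05. Of all genes tested 50.1% lay above 0, and 17% had an unadjusted p under 0.05 in either direction. The endothelial sum overlapped between the groups, with 447 CPM in A24 and 559 CPM in the control A12. *Egfl7* had 42.4 CPM in A12, 41.2 in A7 and 40.7 in A8 among the controls. *Egfl7* had 64.6 CPM in A29, 60.5 in A24, 55.8 in A26, 53.7 in A31 and 52.1 in A25 in the *Adipo-HuR-/-* group, above all controls (0.47, edgeR adjusted p = 0.117), and *Tie1* had 0.62 (adjusted p = 0.147, edgeR). All 5 erythrocyte genes had a log2 fold change below 0 and 0 passed in edgeR's test, with 1 at an unadjusted p under 0.05, *Alas2* (−0.72, adjusted p = 0.16), followed by *Hba-a2* (−0.49, adjusted p = 0.486). Of 9 brown adipocyte genes 0 passed in edgeR's test, with 1 at an unadjusted p under 0.05, *Prdm16* (0.60, adjusted p = 0.218), followed by *Elovl3* (0.72, adjusted p = 0.366). Of 5 Schwann cell genes 0 passed in edgeR's test, with 2 at an unadjusted p under 0.05, *Pmp22* (−0.75, adjusted p = 0.182) and *Sox10* (0.92, adjusted p = 0.201). Without A24 *Pmp22* passed the threshold in edgeR's test (−1.02, adjusted p = 0.0445).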
